A study of Saccharomyces cerevisiae with 3 samples.

Results

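Abf1 and Rap1 are general regulatory factors of budding yeast, abundant proteins that bind specific DNA sites in many promoters and help keep those promoters free of nucleosomes. Rap1 is also known for its role at telomeres and ribosomal protein genes, and Abf1 for its role at origins of replication. The promoters described here belong to the 71 genes that appeared in both the Abf1 and the Rap1 binding lists used by the study. Genes listed for Reb1, ribosomal protein genes, genes with an asymmetric −1 nucleosome and highly transcribed genes were left out. Of 291 genes in both lists, which as used here held 1081 and 1041 genes, 207 passed these exclusions, and 71 of these had a single transcription start site (TSS) in the part of the TSS list used here. That part held 1999 rows and 1971 genes listed once. The other 136 genes could not be placed and were not analysed here. Binding by Abf1 and Rap1 was taken from the lists and was not measured in these libraries. Both lists are shorter than the numbers of bound genes that the study states, so a gene counted here as bound by a single factor or by none may belong to another group.

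Chromatin or purified DNA was digested with micrococcal nuclease (MNase), which cuts linker DNA between nucleosomes but also prefers certain sequences, and the fragments were sequenced from their ends. The samples were 2 libraries of *dst1∆* chromatin, replicates 1 and 2, and 1 library of naked DNA from wild-type cells, in which MNase acted on DNA without histones. Both strains derive from BY4741, a haploid MATa laboratory strain with the auxotrophic markers his3Δ1, leu2Δ0, met15Δ0 and ura3Δ0, and *DST1* encodes the elongation factor TFIIS. The cells were crosslinked with formaldehyde. Wild-type chromatin was not analysed here, so genotype and the presence of histones cannot be told apart in any comparison of *dst1∆* chromatin with naked DNA.

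The *dst1∆* libraries held 10776646 and 9049024 reads and the naked DNA library 16618987. Reads at a strand position were capped at 9, 9 and 11, which left 70.5%, 72.5% and 65.2% of the reads. Within 600 bp of the 71 TSS the shares were 52.8%, 61.0% and 56.1%. The signal is the density of fragment centres, scaled so that the mean of the genome is 100. The labels were checked at chromosome VII, which carries *DST1*. Between 417880 and 418413 (sacCer2) no read began in either *dst1∆* library, while 632 naked DNA reads did, and these 534 bp were the longest such gap among those with at least 50 naked DNA reads. Nothing in the labels says whether the 2 *dst1∆* libraries came from separate cultures, so their spread may be technical. The naked DNA had no replicate and no test was made across libraries. Intervals for single promoters are exact Poisson intervals at 95% that cover counting error only.

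The 71 genes lay on all 16 chromosomes, 42 on the Watson and 29 on the Crick strand. They do varied work. They include *PET9*, *FAS1*, *HTB2*, *SSA1*, *PHO4* and *CDC20*, which encode the mitochondrial ADP/ATP carrier, a fatty acid synthase subunit, histone H2B, a cytosolic Hsp70, the activator of phosphate starvation genes and an activator of the anaphase-promoting complex. In the lists of an earlier study, 36 carried a fragile −1 nucleosome, meaning a nucleosome upstream of the TSS that is easily lost to MNase, 21 carried a stable one and 14 were in neither. A TATA element was listed for 29, a TATA-like element for 21, and neither for 21. Of the 36 fragile promoters 18 had a TATA element, as did 8 of the 21 stable promoters. The lists of stable and of TATA genes were used in part, so a gene in neither class may still belong to either.

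The signal at each promoter is shown for the 3 libraries in order of their naked DNA signal from −250 to −50 bp relative to the TSS, the window used throughout for the promoter. Naked DNA was far from even over these promoters. It spanned 3.29 to 623 with a median of 62.7, and 24 promoters exceeded 200, 33 lay between 20 and 200 and 14 lay under 20. Of the 71 promoters 33.8% were thus over 200, against 16.9% of the 1971 genes, which include the genes left out for other listings. The DNA of many of these promoters therefore yielded abundant fragments of nucleosomal size without any histones.

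**Figure D1:**
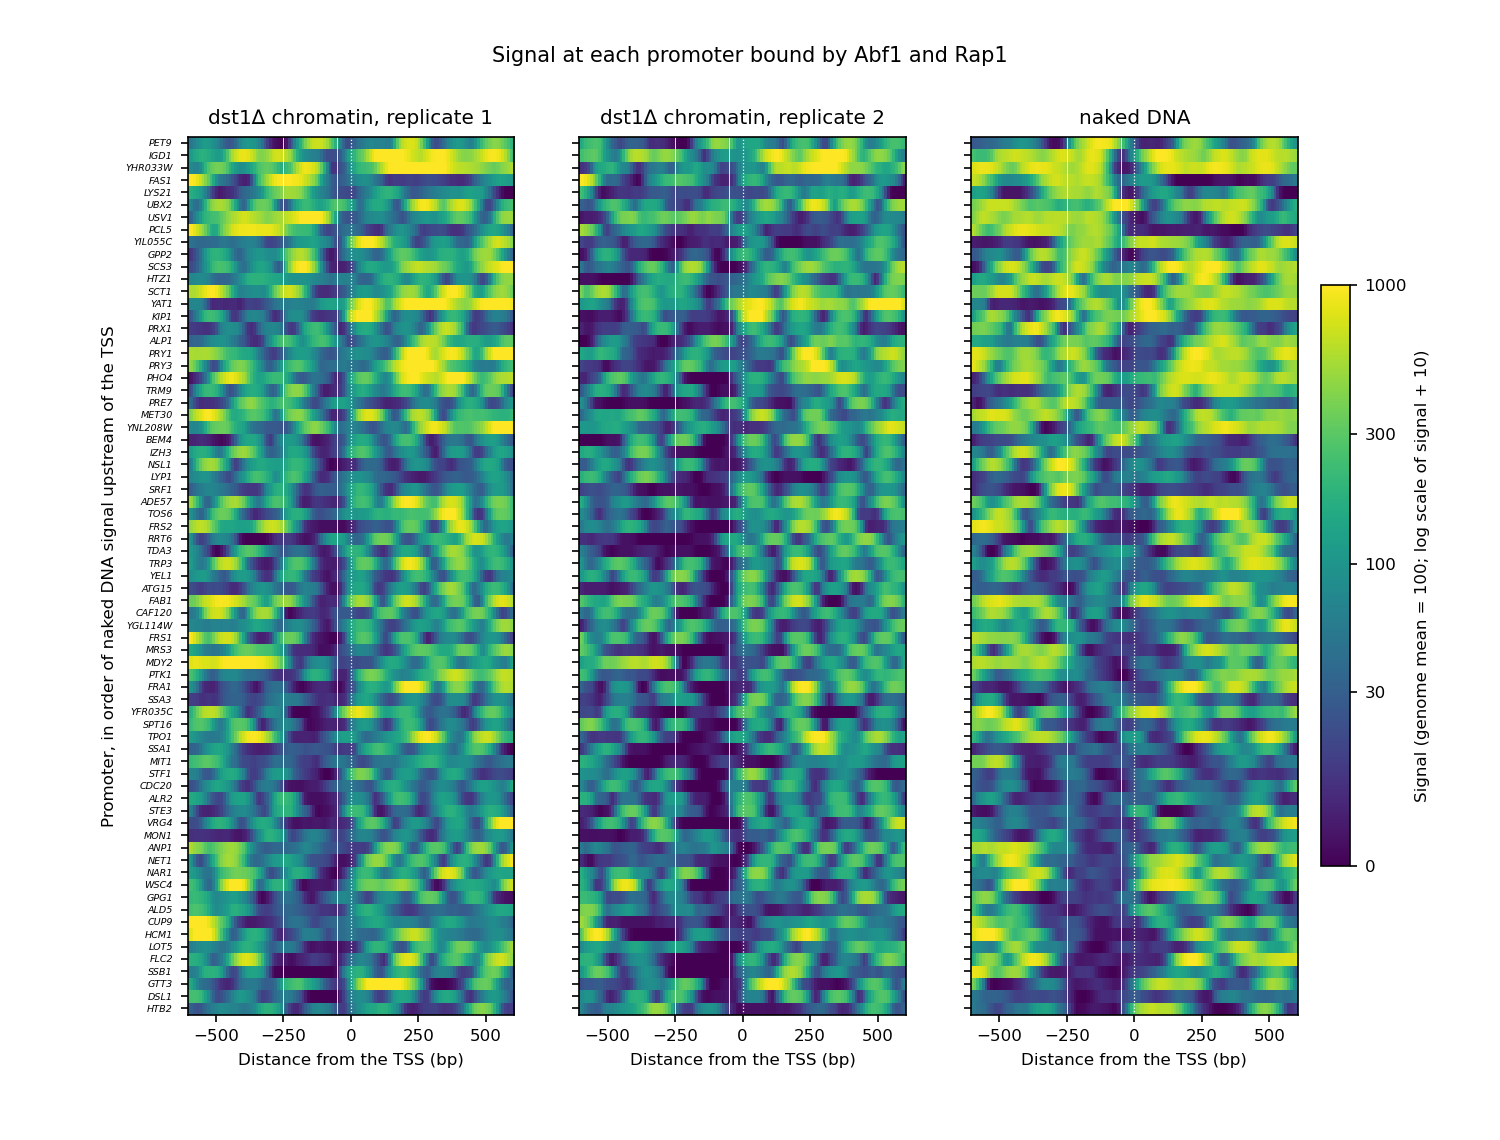
Signal within 600 bp of the TSS (x axis, bp) at each of the 71 promoters bound by Abf1 and Rap1 (rows), in *dst1∆* chromatin replicate 1, replicate 2 and naked DNA, with colour for the signal on a log scale (genome mean 100) and white lines at −250 and −50 bp. Rows run from *PET9*, at 623 in naked DNA between the lines, down to *HTB2*, at 3.29, and replicate 1 shows more of the bright naked DNA stretches than replicate 2.

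The highest naked DNA signal was at *PET9* (TSS at chromosome II 164147, sacCer2), with 345 and 197 in the *dst1∆* replicates and 623 (588 to 661) in naked DNA. It was followed by *IGD1*, an inhibitor of glycogen debranching (chromosome VI 182925), with 152 and 107 in *dst1∆* and 527 (494 to 561) in naked DNA. *YHR033W* (chromosome VIII 175498) had 429 and 81.9 in *dst1∆* and 475 (443 to 508) in naked DNA. At all 3 promoters both *dst1∆* libraries lay below naked DNA, although replicate 1 of *YHR033W* stood close to it, with overlapping counting intervals.

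The lowest naked DNA signals were found at *HTB2* (chromosome II 236056), with 39.0 and 47.5 in *dst1∆* and 3.29 (0.68 to 9.63) in naked DNA. *DSL1*, which acts in tethering vesicles at the endoplasmic reticulum (chromosome XIV 160415), had 16.1 and 74.3 in *dst1∆* and 4.95 (1.82 to 10.8) in naked DNA. *GTT3* (chromosome V 123193) had 135 and 126 in *dst1∆* and 5.13 (2.34 to 9.73) in naked DNA. These are promoters where chromatin gave fragments and free DNA gave almost none. *SSB1*, a ribosome-associated Hsp70 (chromosome IV 44041), had no fragment centre in either *dst1∆* library, which allows a signal of up to 2.38 and 2.75, and 5.22 (2.39 to 9.90) in naked DNA. Its upstream region held the longest stretch without a *dst1∆* read start inside the 600 bp on either side of the 71 TSS, 166 bp with 7 naked DNA reads. *SSB1* and some others, such as *SSA1*, *HTB2* and *LYS21*, have near-identical copies elsewhere in the genome, and only reads with a single place were kept, so their values are uncertain.

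Promoters bound by both factors had a higher mean naked DNA signal than each group they were compared with. The means were 151.7 in the 71 promoters, 109.3 in 270 bound by Abf1 only, 117.9 in 211 bound by Rap1 only, 83.4 in 1090 with none of these listings and 99.0 in all 1971 genes. The log2 ratios of the 71 to these groups were 0.47, 0.36, 0.86 and 0.62, and the medians were 62.7, 52.2, 59.5, 35.1 and 40.9. On the medians the log2 ratio was as large against all genes (0.62) and about as large against unlisted genes (0.84), but smaller against Abf1-only (0.26) and Rap1-only promoters (0.07). The share of promoters above the median of all genes was 60.6% in the 71, 57.4% with Abf1 only and 63.0% with Rap1 only. The excess over unlisted genes was present on 13 of the 16 chromosomes, with between 2 and 9 promoters bound by both factors on each.

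In *dst1∆* chromatin the same window did not give a stable difference. The mean was 105.0 in replicate 1 and 63.4 in replicate 2 for the 71 promoters, against 69.8 and 78.4 for unlisted genes. Replicate 1 was thus higher than unlisted genes and replicate 2 lower, and the log2 ratio of 0.14 ± 0.63 (SD, n = 2) did not exceed the spread. The medians were 54.5 and 43.2 in the 71 promoters and 48.3 and 59.7 in unlisted genes. The direction in chromatin rests on which replicate is read, being 0.59 in replicate 1 alone and −0.31 in replicate 2 alone.

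**Figure D2:**
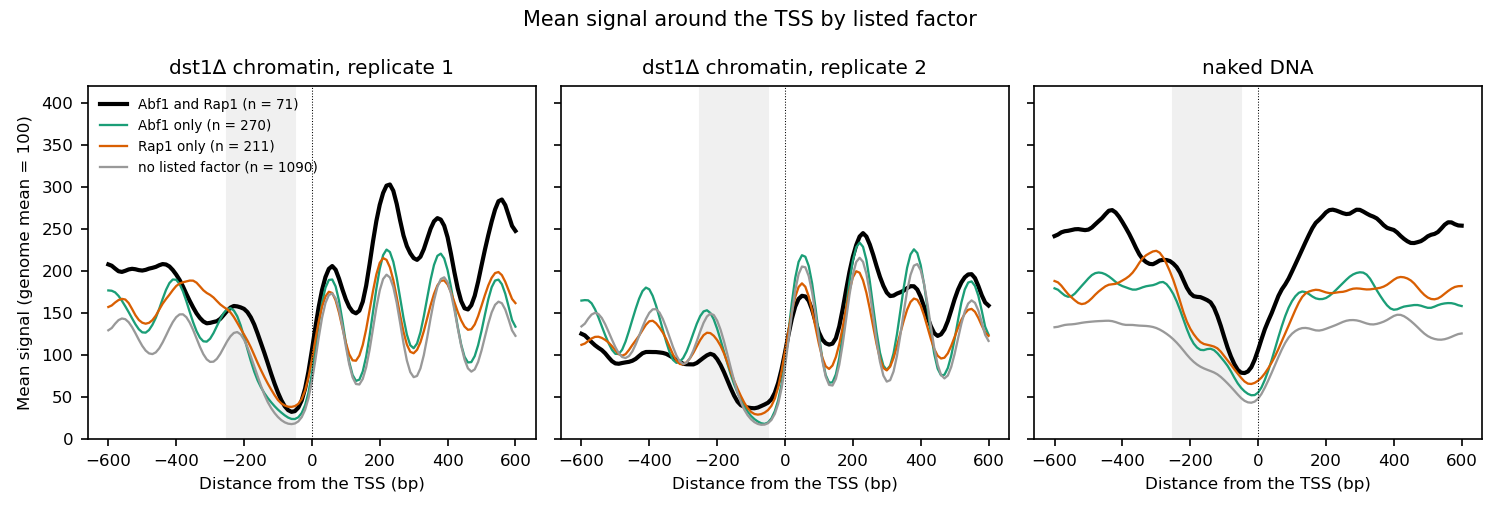
Mean signal (y axis, genome mean 100) against distance from the TSS (x axis, bp) for promoters bound by Abf1 and Rap1, by Abf1 only, by Rap1 only and by no listed factor, in each library, with the window from −250 to −50 bp shaded. In naked DNA the line for the 71 promoters lies above the others from the TSS to 600 bp downstream. In replicate 2 it lies below the others from −250 to −150 bp and above them from −100 to −50 bp.

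The excess in naked DNA was not limited to the promoter. Between 150 and 600 bp downstream the median in the 71 genes was 180.1 and 137.7 in the *dst1∆* replicates and 236.0 in naked DNA, against 100.0, 122.4 and 75.3 in unlisted genes. The log2 ratio of means to unlisted genes there was 0.59 ± 0.32 in *dst1∆* (SD, n = 2), with both replicates above 0, and 0.93 in naked DNA, where 15 of 16 chromosomes had the same direction. The floor of the valley in the mean profile near the TSS was also higher than in all genes, as was the mean of the entire window. In naked DNA the minimum was 76.8 at −39 bp in the 71 genes, against 47.8 at −21 bp in all genes. In *dst1∆* the minima were 29.5 at −59 bp and 35.6 at −85 bp, against 22.0 at −54 bp and 19.0 at −67 bp in all genes. Rap1-only promoters had minima of 37.2 and 28.2 in *dst1∆* and 64.5 in naked DNA. Abf1-only promoters had 22.5 and 16.7 in *dst1∆* and 50.6 in naked DNA. The mean of the entire window in replicate 2 was 126.3 in the 71 genes and 128.9 in Abf1-only genes.

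When each promoter was set against its own gene body, 150 to 600 bp downstream, the median log2 ratio of the 71 was −1.26 and −1.72 in the *dst1∆* replicates and −1.03 in naked DNA. All genes had −1.02 and −1.03 in *dst1∆* and −0.85 in naked DNA. The median of the 71 was thus the lower in all 3 libraries, by the most in replicate 2.

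In steps of 1 kb out to 5 kb, naked DNA of the 71 genes exceeded that of unlisted genes from 3 kb upstream to 5 kb downstream. The log2 ratio was largest from 0 to 1 kb downstream (0.94), where the signal was 235.0 against 122.4. It was 0.76 from 1 to 0 kb upstream, 0.44 and 0.31 in the next steps upstream, and −0.23 and −0.28 from 3 to 5 kb upstream. Downstream it was 0.71 from 1 to 2 kb and between 0.25 and 0.36 from 2 to 5 kb. The strong naked DNA signal therefore formed a broad rise centred near the TSS rather than a peak at the promoter. Replicate 1 had 160.6 from 1 to 0 kb upstream in the 71 genes, against 108.5 in unlisted genes, and replicate 2 had 109.9 against 108.6. Base composition over these stretches was not analysed here.

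**Figure D3:**
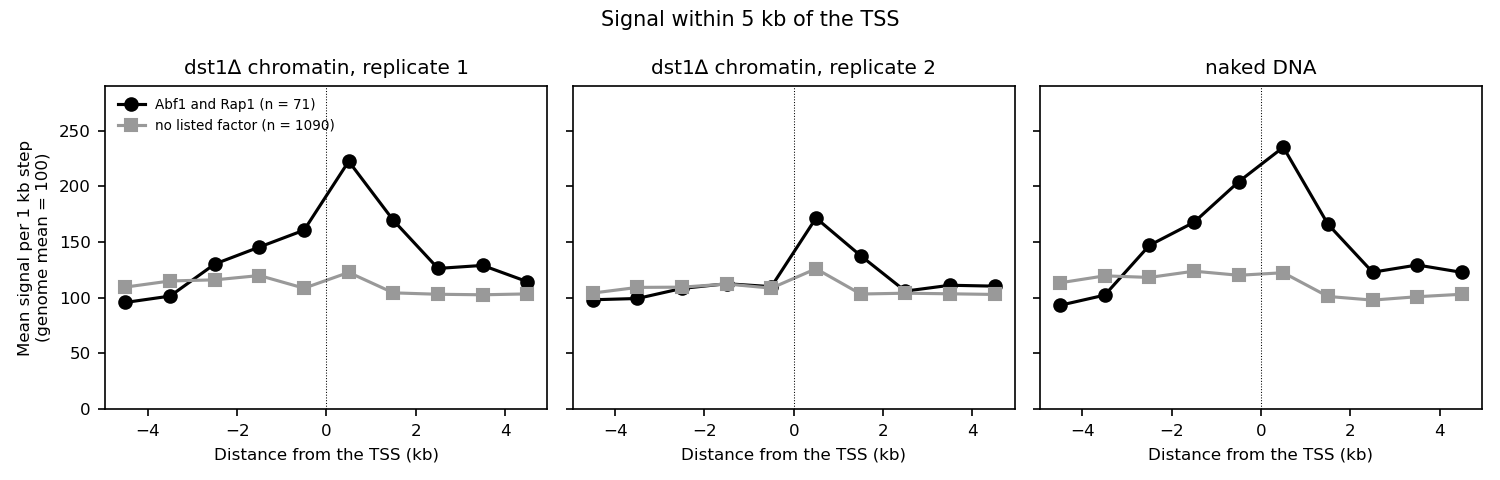
Mean signal in 1 kb steps (y axis, genome mean 100) against distance from the TSS (x axis, kb) for the 71 genes bound by Abf1 and Rap1 and for 1090 genes with no listed factor, in each library. In naked DNA the 71 genes reach 235.0 just downstream of the TSS, against 122.4 in genes with no listed factor, and the lines meet about 3 kb upstream.

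To ask where chromatin differed from its naked DNA, a promoter was called lower or higher when both *dst1∆* replicates were at least 2-fold from naked DNA in the same direction, with 10 added to each signal. Of the 71 promoters, 17 (23.9%) were lower, against 15.6% of all 1971 genes, and 4 (5.63%) were higher, against 14.8% of all genes. The share of lower promoters was 17.4% with Abf1 only, 20.9% with Rap1 only and 11.9% in unlisted genes. Naked DNA is the denominator here, so these counts are not separate from the naked DNA excess of the 71. The log2 ratio of their mean to that of all genes was 0.62 in naked DNA and 0.11 ± 0.46 in *dst1∆* (SD, n = 2). The median log2 ratio of *dst1∆* over naked DNA was −0.66 in the 71 promoters and 0.08 over all genes. *SSB1*, with no fragment centre in either *dst1∆* library, had a log2 ratio of −0.60, which lay above the median of the 71. A higher *dst1∆* signal at *SSB1*, up to the bound that 3 centres per library allow, would therefore leave that median unchanged. The counts of lower and higher promoters depend on the scaling. Scaling by the median of the genome moved the median over all genes by −0.74, and 38 of the 71 were lower and 3 higher, against 33.9% and 7.2% of all genes. They also depend on the replicate, with 20 lower and 8 higher in replicate 1 alone, against 19.4% and 18.9% of all genes, and 34 lower and 13 higher in replicate 2 alone, against 27.9% and 30.4%. At 28 promoters the upstream 500 bp held no other TSS or transcript end of the part of the list used here. Sites outside that part may still lie there. Of the 28, 9 (32.1%) were lower and none was higher. Of the 526 genes of this kind among all genes, 18.8% were lower and 9.51% higher.

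The lowest ratio was found at *YIL055C*, an uncharacterised gene (chromosome IX 254421), with 85.9 (70.5 to 104) and 5.04 (1.64 to 11.8) in *dst1∆* and 397 (369 to 427) in naked DNA, a log2 ratio of −3.42 ± 1.89 (SD, n = 2). *KIP1*, a kinesin motor of the mitotic spindle (chromosome II 101871), had 40.8 and 14.6 in *dst1∆* and 295 in naked DNA, a log2 ratio of −3.11 ± 0.74. *PHO4* (chromosome VI 225981) had 49.6 and 6.44 in *dst1∆* and 233 in naked DNA, with −2.96 ± 1.31. Its replicate 2 value rests on 1 fragment centre (0.16 to 35.9). Both *dst1∆* libraries lay below naked DNA at the 3 promoters, but replicate 2 was lower than replicate 1 at each. The closest replicates among lower promoters were those of *YAT1*, a carnitine acetyltransferase, with 85.8 and 91.5 in *dst1∆* and 321 in naked DNA.

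The 4 higher promoters were *GTT3*, *NAR1*, *HTB2* and *HCM1*. At *GTT3* the log2 ratio was 3.22 ± 0.07 (SD, n = 2), the highest and among the most even. *NAR1*, which acts in the assembly of iron-sulfur proteins (chromosome XIV 200023), had 77.4 and 164 in *dst1∆* and 15.7 in naked DNA, with 2.27 ± 0.70. *HTB2* had 2.00 ± 0.16. *HCM1*, a forkhead transcription factor, had 36.6 and 63.7 in *dst1∆* and 10.7 in naked DNA, with 1.5 ± 0.47. At these 4 promoters the naked DNA was under 20, so a moderate chromatin signal sufficed for the call.

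**Figure D4:**
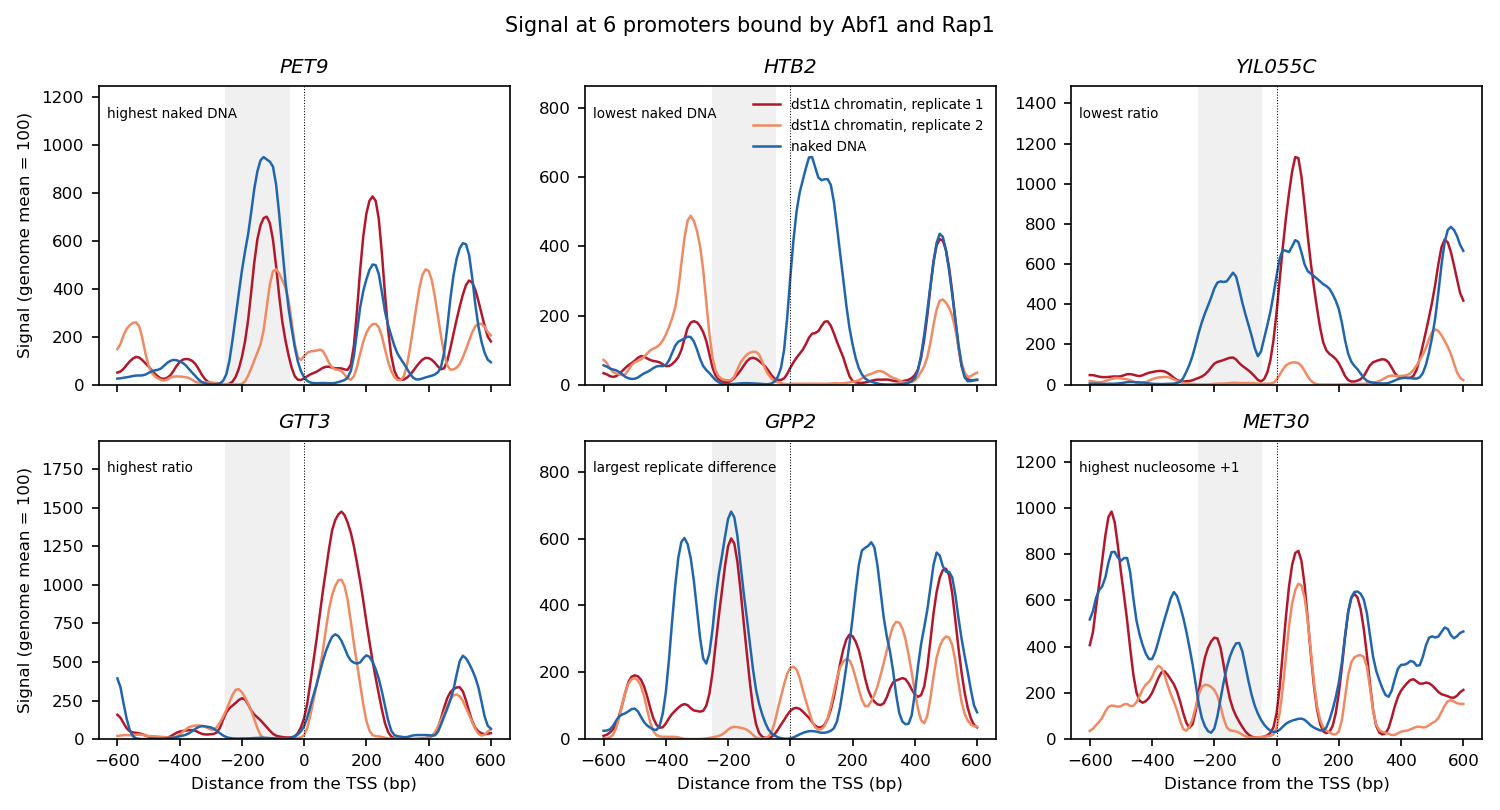
Signal (y axis, genome mean 100, with its own scale in each panel) against distance from the TSS (x axis, bp) at 6 promoters chosen by rank, in *dst1∆* chromatin replicate 1, replicate 2 and naked DNA, with the window from −250 to −50 bp shaded. At *GPP2* replicate 1 (273 in the window) resembles naked DNA (358) while replicate 2 (17.8) is nearly empty, and at *GTT3* both *dst1∆* libraries (135 and 126) show a peak that naked DNA (5.13) lacks.

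The replicates themselves stood far apart at many of these promoters. Replicate 1 was at least 2-fold above replicate 2 at 25 of the 71 promoters (35.2%), against 16.2% of all genes, and at least 2-fold below it at 6 (8.45%), against 14.8%. The share with replicate 1 above was 14.1% with Abf1 only, 25.6% with Rap1 only and 11.4% in unlisted genes. In simple order, replicate 1 exceeded replicate 2 at 47 promoters (66.2%), against 48.1% of all genes.

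The largest gaps were at *GPP2*, a glycerol-3-phosphate phosphatase (chromosome V 280829), *LYS21*, a homocitrate synthase of lysine synthesis (chromosome IV 227313), and *PCL5*, a cyclin that targets the activator Gcn4 for breakdown (chromosome VIII 236625). *GPP2* had 273 (245 to 303) in replicate 1, 17.8 (10.5 to 28.1) in replicate 2 and 358 (331 to 387) in naked DNA. *LYS21* had 244 (217 to 272) in replicate 1, 16.8 (9.81 to 27) in replicate 2 and 441 (411 to 472) in naked DNA. *PCL5* had 156 (133 to 181) in replicate 1, 11.9 (6.13 to 20.7) in replicate 2 and 430 (400 to 462) in naked DNA. The log2 ratios of replicate 1 over replicate 2 were 3.35, 3.24 and 2.92, and the counting intervals of the replicates did not overlap. The 6 promoters with the opposite order were *BEM4*, *CAF120*, *YGL114W*, *FRA1*, *SPT16* and *DSL1*, named after their values were seen. Their replicate 1 was between 6.60 and 43.5 and their replicate 2 between 27.5 and 137.

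Along the positions of each window, from 600 bp upstream to 600 bp downstream, replicate 1 was more like naked DNA than replicate 2 was. The median correlation with naked DNA over the 71 genes was 0.72 for replicate 1, against 0.54 in all genes, and 0.33 for replicate 2, against 0.21. Replicate 1 was the nearer at 68 of the 71, against 87.6% of all genes. The exceptions were *SSA3*, *STF1* and *SSB1*. The replicates correlated with each other at a median of 0.72. These are descriptions over positions of the same window, which share reads with their neighbours, and the degree of digestion was not measured. Naked DNA and replicate 1 share the sequencing instrument and the read length given in the methods of the study, and replicate 2 was sequenced on another instrument with longer reads. The deposited lines span 36 bp in replicate 1 and naked DNA and 46 bp in replicate 2. Instrument and replicate cannot be told apart here.

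The medians of fragile and stable −1 promoters lay further apart in chromatin than in naked DNA. The median upstream signal was 44.0 and 16.3 in the *dst1∆* replicates for the 36 fragile promoters, against 80.7 and 96.7 for the 21 stable ones. The naked DNA medians were 76.5 in fragile and 65.7 in stable promoters. The log2 ratio of fragile over stable medians was −1.72 ± 1.2 in *dst1∆* (SD, n = 2), at −0.88 in replicate 1 and −2.57 in replicate 2, and 0.22 in naked DNA, a value that changed sign under other settings, with −0.31 in the window from 200 to 0 bp upstream. The values overlapped widely. Fragile promoters spanned 0.06 to 514 in replicate 1 and 0 to 197 in replicate 2, and stable ones 4.39 to 823 and 0.41 to 388.

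Among fragile promoters 11 of 36 (30.6%) were lower in *dst1∆* than in naked DNA, close to the 27.4% of all 712 fragile genes. Of the stable promoters 3 of 21 were lower, against 9.41% of all 723 stable genes, and of those in neither list 3 of 14, against 8.21%. Replicate 1 was at least 2-fold above replicate 2 at 17 of 36 fragile promoters (47.2%), against 24.6% of all fragile genes, and at 4 of 21 stable promoters (19.0%), against 10.9%. Over all genes the same order held, with medians of 34.0 and 26.3 in the *dst1∆* replicates for fragile promoters and 55.4 and 69.4 for stable ones. Set against these, the fragile promoters bound by both factors had the higher median in replicate 1 and the lower in replicate 2, and the stable ones the higher median in both.

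Promoters with a TATA element had a median naked DNA signal of 190.4, against 57.1 in TATA-like promoters, a log2 ratio of 1.74, which was 0.87 with 1 read counted per strand position. The shares above the median of all genes were alike, 17 of 29 TATA promoters (58.6%) and 12 of 21 TATA-like promoters (57.1%). In *dst1∆* the medians were 80.7 and 17.8 in TATA promoters, against 49.6 and 41.9 in TATA-like promoters, so that the replicates went in opposite directions. TATA promoters were split in naked DNA, from 3.29 at *HTB2* to 623 at *PET9*, with quartiles at 24.3 and 397, and overlapped TATA-like promoters over the entire range of the TATA-like values, 5.13 to 330. Replicate 1 was at least 2-fold above replicate 2 at 14 of 29 TATA promoters (48.3%), against 23.2% of all TATA genes, and at 8 of 21 TATA-like promoters (38.1%), against 15.4% of all TATA-like genes. It was at least 2-fold below it at none of either, against 14.8% of all 1971 genes. The shares over all TATA and all TATA-like genes were not computed for this call.

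**Figure D5:**
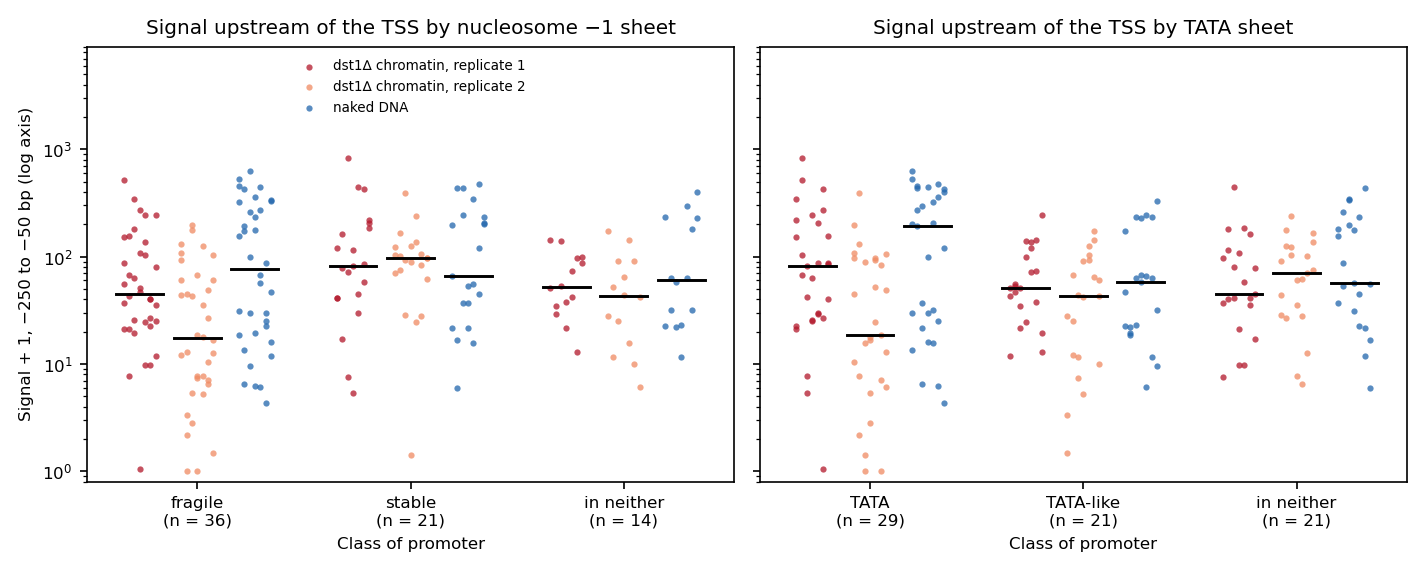
Upstream signal plus 1 (y axis, log scale) of each of the 71 promoters (points) by list of −1 nucleosomes and by TATA list (x axis), in *dst1∆* chromatin replicate 1, replicate 2 and naked DNA, with bars at the medians. Fragile promoters have medians of 44.0, 16.3 and 76.5, and stable promoters 80.7, 96.7 and 65.7, before the 1 is added.

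Downstream of the TSS the first nucleosome, +1, was sought after subtraction of naked DNA from *dst1∆*, as the highest peak between 20 bp upstream and 150 bp downstream. Before the subtraction, the signal from 0 to 150 bp was at least 2-fold above naked DNA in both replicates at 13 of the 71 genes (18.3%), against 34.7% of all genes. It was at least 2-fold lower at 7 (9.86%), against 4.82%. With scaling to the genome median these counts became 6 and 20, against 17.1% and 15.8% of all genes. In replicate 1 alone 23 genes were higher and 8 lower, against 44.3% and 6.9% of all genes, and in replicate 2 alone 19 were higher and 15 lower, against 50.8% and 11.9%. After the subtraction a +1 peak was found in replicate 1 at 58 genes, in replicate 2 at 50 and in both at 46 (64.8%), against 82.0% of all genes. No peak was found in either replicate at 9 genes, among them *LYS21*, *HTB2* and *NET1*. Naked DNA from 0 to 150 bp was itself higher in the 71, with a log2 ratio of means to all genes of 0.71. The lower share after the subtraction is therefore not separate from the naked DNA excess. Without the subtraction a peak was found in both replicates at 61 of the 71 genes, and with a weight of 0.5 at 55. The matching shares over all genes are not given here.

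Where +1 was found in both replicates its place differed little from other genes. The median position was 43.0 and 44.5 bp downstream of the TSS in the 46 genes, against 48.0 and 50.0 bp in all genes. The replicates lay within 20 bp of each other at 41 of 46 (89.1%), against 91.3% of all genes, and over 50 bp apart at *IGD1*, *PRY1* and *GPG1*. The median height was 116 and 137, or 127 ± 14.9 (SD, n = 2), against 106 and 161 in all genes. The fuzziness, the SD of position around the peak, was 26.6 and 26.0 bp, against 25.7 and 25.5 bp in all genes.

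By the mean of the replicates, the highest +1 peaks were at *MET30*, the subunit of a ubiquitin ligase that governs sulfur amino acid synthesis, with 662 and 534 in the replicates. They were followed by *GTT3* with 824 and 353 and *STF1*, which acts with the inhibitor of mitochondrial ATP synthase, with 300 and 380. The lowest were at *YNL208W* with 52.5 and 23.3, *LYP1*, a lysine permease, with 28.8 and 47.1, and *GPG1* with 57.7 and 24.1. In replicate 1 alone *GTT3* stood above *MET30*. At *YNL208W* the signal from 0 to 150 bp before subtraction was 49.0 and 18.5 in *dst1∆* and 324 in naked DNA.

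The distance from nucleosome −1 to +1 exceeded that of all genes in part of the settings. Over the 42 genes with a value in both replicates the median was 298 bp in each replicate, against 270 and 273 bp in all genes and 263 and 266 bp in unlisted genes. Abf1-only genes had 272 and 275 bp, and Rap1-only genes 279 and 288 bp. Within the 42 it was 352.5 and 354.5 bp at 20 fragile promoters and 258.5 and 274 bp at 16 stable promoters. The widest were *SSA1* with 598 and 613 bp and *MRS3*, a mitochondrial iron carrier, with 565 and 571 bp, and the narrowest were *USV1* with 204 and 145 bp and *ALP1* with 167 and 182 bp. Nucleosome −1 was the nearest peak upstream of +1, so a missed −1 peak gives a longer distance. After the subtraction the promoter window held 3.42 and 0 at *SSA1* and 1.27 and 0 at *MRS3*. It held 391 and 55.8 at *USV1* and 20.8 and 73.6 at *ALP1*. Whether the long distances, or those of fragile promoters, skip a −1 peak was not tested. Over all 58 genes with a value in replicate 1 the median was 274 bp, against 269 bp in all genes, and over the 45 with a value in replicate 2 it was 302 bp, against 273 bp. Without the subtraction of naked DNA it was 275 bp, against 272 bp in all genes, so the excess depends on the correction and on which genes are counted. The median distance from +1 to +2 was 180 and 185 bp over the 37 genes with a value in both replicates, against 173 and 175 bp in all genes. A missed +2 peak likewise gives a longer distance.

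By function, naked DNA at the promoters of 7 genes of amino acid and nucleotide supply spanned 65.7 to 441, with a median of 207, and at 6 genes of lipid and mitochondrial metabolism it spanned 12.5 to 623, with a median of 326. Lists of this size are too small for their counts of lower and higher promoters to be read against the 15.6% and 14.8% of all genes. Of the 7, 2 were lower in *dst1∆* and none was higher. The lower ones were *PCL5* and *ADE57*, a purine enzyme, with 35.6 and 43.2 in *dst1∆* and 153 in naked DNA. *ALP1*, a basic amino acid permease, had 179 and 177 in *dst1∆* and 262 in naked DNA, and *MET30* had 203 and 96.8 against 207. *TRP3*, of tryptophan synthesis, had 120 and 103 in *dst1∆* and 65.7 in naked DNA. *LYP1* had 107 and 6.67 in *dst1∆* and 177 in naked DNA. Replicate 2 was thus near empty at *LYS21*, *PCL5* and *LYP1* and close to replicate 1 at *ALP1*, *ADE57* and *TRP3*.

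Among 6 genes of lipid and mitochondrial metabolism, 2 were lower, *YAT1* and *MRS3*, and none was higher. *MRS3* had 11 and 0.48 in *dst1∆* and 46.0 in naked DNA, with no fragment centre inside the window in replicate 2. *FAS1* had 514 and 129 in *dst1∆* and 452 in naked DNA, with replicate 1 above naked DNA and replicate 2 below it. *SCT1*, an acyltransferase of phospholipid synthesis, had 242 and 59.5 in *dst1∆* and 330 in naked DNA, in the same order of replicates. *ALD5*, a mitochondrial aldehyde dehydrogenase, had the reverse, 20.4 and 44.1 in *dst1∆* and 12.5 in naked DNA.

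Of the 3 chromatin genes, *HTZ1*, which encodes the variant histone H2A.Z, was lower with 79.4 and 104 in *dst1∆* and 337 in naked DNA. *HTB2* was higher, as above, and *SPT16*, a subunit of the histone chaperone FACT, had 20.2 and 59.2 in *dst1∆* and 30.3 in naked DNA. The *HTZ1* replicates were close to each other and both far from naked DNA, whereas those of *SPT16* stood on either side of it. The Hsp70 genes met no call. *SSA1* had 24.4 and 1.84 (0.22 to 6.63) in *dst1∆* and 28.9 in naked DNA. *SSA3* had 28.5 and 51.1 in *dst1∆* and 31.1 in naked DNA.

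Of 5 transcription regulators, *PHO4* was lower and *HCM1* higher. *USV1*, a zinc finger factor (chromosome XVI 115057), had the highest upstream signal of the 71 in both replicates, with 823 (774 to 875) and 388 (351 to 428), against 432 (402 to 464) in naked DNA. Replicate 1 was thus well above naked DNA and replicate 2 close to it. *CUP9*, a homeodomain repressor, had 34.5 and 11.6 in *dst1∆* and 10.8 in naked DNA, and *MIT1*, a regulator of pseudohyphal growth, had 25.6 and 6.05 against 24.3.

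The genes for both subunits of cytosolic phenylalanyl-tRNA synthetase were present and differed. *FRS1* had 113 and 125 in *dst1∆* and 52.1 in naked DNA, and *FRS2* had 62.2 and 4.40 in *dst1∆* and 99.3 in naked DNA. The log2 ratios were 1.06 ± 0.10 and −1.76 ± 1.64 (SD, n = 2), and neither met the call because in each a replicate was short of 2-fold. Of 4 cell cycle genes only *KIP1* was lower. *CDC20* had 8.85 and 5.57 in *dst1∆* and 21.8 in naked DNA, with no fragment centre inside the window in replicate 2. *NSL1*, of the kinetochore, had 96.9 and 89.6 against 181. *NET1*, which holds Cdc14 in the nucleolus, had 54.5 and 11.1 in *dst1∆* and 17.4 in naked DNA.

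Windows overlapped in 5 pairs that held 10 of the 71 genes, 3 of them divergent and 2 in tandem, so these values are not independent. *PRX1*, a mitochondrial peroxiredoxin, and *KIP1* diverge from TSS 652 bp apart, and both were lower than naked DNA. *PRX1* had 103 and 6.77 in *dst1∆* and 270 in naked DNA, with 2 fragment centres in replicate 2 (0.82 to 24.4). The permease genes *ALP1* and *LYP1* diverge from TSS 460 bp apart, yet replicate 2 was 177 on the *ALP1* side and 6.67 on the *LYP1* side. *PRY3* and *NET1* were 1068 bp apart and differed in naked DNA, 235 against 17.4. In tandem, *PHO4* and *YFR035C* were 472 bp apart, and *TRM9* and *UBX2* 848 bp apart. With 1 gene of each pair kept, the log2 ratio of the promoters to all genes in naked DNA was 0.59, against 0.62 with both.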

How the data were processed

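The deposited files give the start, end and strand of each read of 3 MNase libraries, 1 line per read, and a display score, for which the authors wrote 1000 throughout and which was not used. For alignment to sacCer2 the authors used GEM (version not given in the sources used here) with at most 3 mismatches, and ambiguous reads were discarded, so genes with near-identical copies lose reads. Repeated reads are still in these files.

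Here, the number of reads at a strand position was limited by a Poisson bound (probability 1e-10). A fragment centre was set 73 bp inward of each read start, a width of 81 bp was counted, and libraries were scaled to a genome mean of 100. Mitochondrial reads were left out. Log2 ratios used a pseudocount of 10 and understate changes at low signal. For +1, naked DNA was subtracted, negative values were set to 0, the signal was smoothed with an SD of 20 bp, and peaks lower than 20 or closer than 100 bp were dropped. Nucleosome −1 was the nearest peak upstream of +1.

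The TSS are those of the gene lists of the study. Symbols come from the RefSeq table of assembly R64, where all 71 locus tags matched and 5 had no symbol beyond the systematic name. Its coordinates were not used. Promoter sequences were not analysed here. The gene groups and lists were chosen with earlier results of these data known. The named genes are the 3 highest and lowest in naked DNA, in the ratio to naked DNA and in +1 height, the 3 with the largest replicate difference, the members of the function lists and the overlapping pairs. Any further gene was chosen after its values were seen. The +1 position and the upstream log2 ratio were checked on simulated data with even naked DNA. The subtraction of uneven naked DNA and the other measures were not checked in this way. No p-value was computed, and naked DNA had 1 library. Scripts ran in Python 3.11.15 with pandas 2.3.3, scipy 1.17.1, numpy 2.4.6 and, for figures, matplotlib 3.10.9.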

Additional observations from a re-analysis of the deposited data

Results flagged for a closer look

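In data outside the main measurement, *dst1∆* replicate 2 held 1285 reads on the mitochondrial genome, against 0 in naked DNA, and replicate 1 held 0. These reads entered no comparison.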

How the results depend on the processing

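With 1 naked DNA library and 2 of *dst1∆*, no test was run, and low promoters rest on few fragment centres. No paired analysis was possible because the naked DNA library carries no replicate number shared with *dst1∆*. Naked DNA and *dst1∆* replicate 1 share an instrument and read length, which replicate 2 does not.

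In naked DNA, the log2 ratio of the 71 promoters to all genes (0.62) was 0.67 without a cap, 0.40 with 1 read per strand position, 0.64 in the window from 200 to 0 bp upstream, 0.46 in genes without another listed TSS or transcript end in the upstream 500 bp (no other site) and 0.59 with 1 gene of each overlapping pair, the last chosen after the data were seen, as were the 1 kb steps, the correlations and the ratio to the gene body. Against Abf1-only promoters (0.47) it was 0.31 with 1 read, 0.54 in the other window and 0.43 with no other site. Against Rap1-only promoters (0.36) it was 0.48 without a cap, 0.19 with 1 read, 0.39 in the other window and 0.44 with no other site. Against unlisted genes (0.86) it was 0.95 without a cap, 0.56 with 1 read, 0.89 in the other window and 0.71 with no other site. The ratio of *dst1∆* to unlisted genes (0.14) ranged from −0.31 to 0.59 with a replicate left out.

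The 17 lower promoters became 38 with the genome median and 9 with no other site, and 20 to 34 with a replicate left out, where a single replicate has to pass. The 4 higher became 8 without a cap, 2 with 1 read, 0 with no other site and 9 with a pseudocount of 1, and 8 to 13 with a replicate left out. The median log2 ratio (−0.66) was −1.51 with the genome median and −1.21 with no other site, and −0.94 to −0.38 with a replicate left out. From 0 to 150 bp downstream, the 7 lower genes became 3 with 1 read and 20 with the genome median, and 8 to 15 with a replicate left out. The 13 higher became 5 with 1 read and 6 with the genome median, and 19 to 23 with a replicate left out. The 25 promoters with replicate 1 above replicate 2 were 35.2% of the 71, against 16.2% of all genes. With no other site they became 14 of 28 (50%), against 20.7% of the 526 genes of this kind. Shares over all genes were not computed without a cap, with 1 read or with a pseudocount of 1, so those counts have no background.

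The median +1 position (43.8 bp) was 42.5 bp without a cap, 45.0 with 1 read, 40 with a nucleosome length counted around each centre, 50.0 without correction, 47.0 with a weight of 0.5 and 47.0 with a height of at least 50, and 44.5 to 46.0 with a replicate left out. The height (127) was 103 with 1 read, 90.6 with a nucleosome length, 189 with the genome median, 178 without correction and 160 with a height of at least 50, and 103 to 125 with a replicate left out. The distance from −1 to +1 (298 bp) was 305 bp without a cap, 308 with 1 read, 279 with a nucleosome length, 306 with the genome median, 275 without correction and 286 with a weight of 0.5, and 274 to 302 with a replicate left out.

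Fragile over stable promoters in naked DNA (0.22) was 0.36 with a nucleosome length, −0.18 with 1 read, −0.31 in the other window and −0.87 with no other site, and in *dst1∆* (−1.72) it ranged from −2.57 to −0.88 with a replicate left out. TATA over TATA-like promoters (1.74) was 2.00 without a cap, 0.87 with 1 read and 1.53 with a nucleosome length. Of 21 called promoters, *PRE7* alone changed direction, to 0.11 in the other window. The causes of these shifts were not tested.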

Other observations

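Around *LYS21* (TSS at chromosome IV 227313) neither *dst1∆* library had a read start from 227801 to 228015, a stretch of 215 bp with 74 naked DNA reads. It was the longest such stretch after the 534 bp on chromosome VII and 289 bp on chromosome XIV. Within 600 bp of the TSS it covered 113 bp with 65 naked DNA reads. After the subtraction of naked DNA *LYS21* also had no +1 peak in either replicate. Between 150 and 600 bp downstream *dst1∆* was at 68.1 and 125 and naked DNA at 107.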
